A study of Mus musculus with 12 samples.

Results

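*Cirbp* and *Rbm3* encode the cold-inducible RNA-binding protein and RNA-binding motif protein 3, and they are 2 of the 23183 genes listed for the cortex and the hippocampus of irradiated mice. Their rows were found by gene symbol in every library. The pair was selected on its lower FPKM in irradiated than in sham-irradiated brain, which was known from an earlier analysis of the same values, so that difference is described below without a test. Male C57BL/6 mice, bought at 7 weeks of age and kept for 1 week before use, received a single dose of 10 Gy of X-rays to the whole brain (IR) or were sham-irradiated on the same platform (Con). RNA was taken 3 months later, with 3 Con and 3 IR libraries for each region, 12 in all. The values are FPKM, fragments counted per length of transcript and per size of library, so levels can be set side by side between libraries and between genes.

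Both proteins belong to a small family that joins a single RNA recognition motif to a glycine-rich tail, and both mRNAs are known to rise with mild cooling and to fall with warmth. CIRBP binds the mRNAs of clock genes and moves into stress granules after several kinds of stress. RBM3 supports translation at low temperature, and in mouse models of neurodegeneration it is known for preserving synapses through a route that runs from the receptor TrkB to RTN3. Splicing of both mRNAs is known to depend on temperature, through CLK kinases, SR proteins and, for *Rbm3*, a poison exon. Neither the body temperature of the mice nor the hour at which tissue was taken is given in the sources used here.

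*Cirbp* (ENSMUSG00000045193.13) lies on the plus strand of chromosome 10 at 80165985 to 80172786, and *Rbm3* (ENSMUSG00000031167.16) lies on the minus strand of chromosome X at 8138975 to 8145880 (GENCODE M21 on GRCm38, the build called mm10). The annotation gives 7 transcripts of *Cirbp*, of which 2 are protein coding, 1 is a target of nonsense-mediated decay and 4 retain an intron. It gives 11 transcripts of *Rbm3*, of which 6 are protein coding, 2 are targets of nonsense-mediated decay and 2 retain an intron. A single FPKM per gene was used here, so coding and noncoding transcripts of each gene could not be told apart.

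The coding sequences of the 2 genes are similar enough to be lined up. The gap-free stretch of 60 bases with the highest identity is shown to let the members be compared base by base, and it covers coding bases 88 to 147 of *Cirbp*-202 (chr10:80169901-80170059, plus strand) and of *Rbm3*-204 (chrX:8144636-8144970, minus strand). Both stretches run across an exon junction. Capitals mark the 13 of 60 bases that differ.
*Cirbp*-202: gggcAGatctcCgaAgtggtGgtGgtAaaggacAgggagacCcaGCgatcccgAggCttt
*Rbm3*-204: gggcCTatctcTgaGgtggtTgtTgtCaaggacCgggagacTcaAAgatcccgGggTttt
Over the whole alignment, 322 of 450 coding bases (71.6%) were identical, from coding sequences of 516 bases for *Cirbp* and 462 bases for *Rbm3*. The longest exact run shared by any transcripts of the 2 genes was 11 bases, far below the read length of 100 bases, so reads of one gene have no long identical stretch in the other.

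A known switch of *Cirbp* transcription in the cold is the mild-cold response element, spelled TCCCCGCC. RefSeq holds 2 promoter entries for *Cirbp*, both at starts inside the GENCODE locus, which begins farther upstream. The entry at the lower coordinate held these letters at chr10:80167592-80167599, on the plus strand and 247 bases before its transcription start, and the other entry was not analysed here. The 189 bases of this promoter that lie outside *Cirbp* exons, chr10:80167589-80167777 on GRCm38, are shown with the element in capitals.
*Cirbp* promoter: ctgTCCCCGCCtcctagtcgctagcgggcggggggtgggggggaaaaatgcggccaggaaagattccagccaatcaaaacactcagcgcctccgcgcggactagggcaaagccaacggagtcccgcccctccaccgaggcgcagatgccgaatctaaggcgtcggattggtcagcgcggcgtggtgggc
On either strand, TCCCCGCC was found in 940 of 32544 RefSeq promoter windows of this length (2.89%). The clock-factor E-box CACGTG, held by 3.99% of the windows, and the heat shock element core GAANNTTC, held by 4.92%, were not in the *Cirbp* window. These matches describe letters and say nothing about the binding of a factor. No promoter of *Rbm3* was analysed here.

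The libraries matched their labelled regions for most markers. *Prox1*, of dentate granule cells, was at 14.4 to 21.1 FPKM in the hippocampus and 1.69 to 2.23 FPKM in the cortex, and *Cux2*, of upper-layer cortical neurons, was at 26.0 to 33.6 FPKM in the cortex and 4.24 to 5.04 FPKM in the hippocampus. Of 14 region markers, *Wfs1* and *Fezf2* overlapped between the regions. These 4 markers were chosen to be named after their values were seen. Depth in reads is unknown. Steps between low FPKM values put depth relative to Con 1 at 1 in the cortex Con libraries and 1.01 to 1.05 in the cortex IR libraries, and at 1 to 1.07 in hippocampus Con and 1.09 to 1.13 in hippocampus IR. The hippocampus IR estimates rest on 23 to 62 genes of 930 to 1010 compared. Estimated depth was thus higher in every IR library, and its part in the results was not tested. No pair of libraries held identical values. The labels name Trizol and total RNA where the authors' methods name a column kit and poly(A) selection, which is not settled here. The hippocampus library Con 3 had the largest median deviation from its group mean over genes (0.087 on the log2 scale against 0.047 to 0.081 in the other 11). Hippocampus Con 1 was next at 0.081, and it had a summed FPKM of T cell markers of 1.52 against 0.018 to 0.22 in the other libraries. For IR against Con in the hippocampus, leaving out Con 3 moved the number of calls most, from 4 to 880. In the cortex, leaving out IR 1 moved it most, from 102 to 16. The main results that turn on hippocampus Con 3 are given with and without it. The IR library numbered 1 held the lowest value of both genes in each region. Region cannot be told apart from a processing run, since the value columns carry different run endings for cortex and hippocampus.

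In the cortex, *Cirbp* was at 67.99, 73.2 and 65.7 FPKM in the Con libraries and at 34.7, 45.7 and 45.5 FPKM in the IR libraries. The groups did not overlap, and IR 1 was the lowest. Averaged over 3 libraries (± SD), the level was 68.96 ± 3.86 FPKM for Con against 42.0 ± 6.28 FPKM for IR, 39.1% lower, and the log2 fold change was -0.71 with a standard error of 0.099. *Rbm3* was at 81.1, 75.7 and 76.7 FPKM in Con and at 47.8, 63.8 and 58.0 FPKM in IR. Again IR 1 was the lowest and the groups did not overlap. Averaged over 3 libraries (± SD), the level of *Rbm3* was 77.9 ± 2.87 FPKM for Con against 56.6 ± 8.11 FPKM for IR, 27.4% lower, and the log2 fold change was -0.46 with a standard error of 0.092.

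In the hippocampus, *Cirbp* was at 95.6, 74.5 and 52.6 FPKM in Con and at 24.7, 40.3 and 36.8 FPKM in IR. The Con libraries were spread widely, and Con 3 was nearer to the highest IR library than to the next Con library. Averaged over 3 libraries (± SD), the level was 74.2 ± 21.5 FPKM for Con against 33.9 ± 8.17 FPKM for IR, 54.3% lower, and the log2 fold change was -1.10 with a standard error of 0.24. *Rbm3* was at 103, 96.4 and 79.2 FPKM in Con and at 38.4, 58.97 and 56.2 FPKM in IR. Con 3 was again the lowest Con library and IR 1 the lowest of all. Averaged over 3 libraries (± SD), the level of *Rbm3* was 92.9 ± 12.3 FPKM for Con against 51.2 ± 11.2 FPKM for IR, 44.9% lower, and the log2 fold change was -0.86 with a standard error of 0.17. In bulk tissue, fewer cells of a type and less RNA per cell cannot be told apart.

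**Figure D1:**
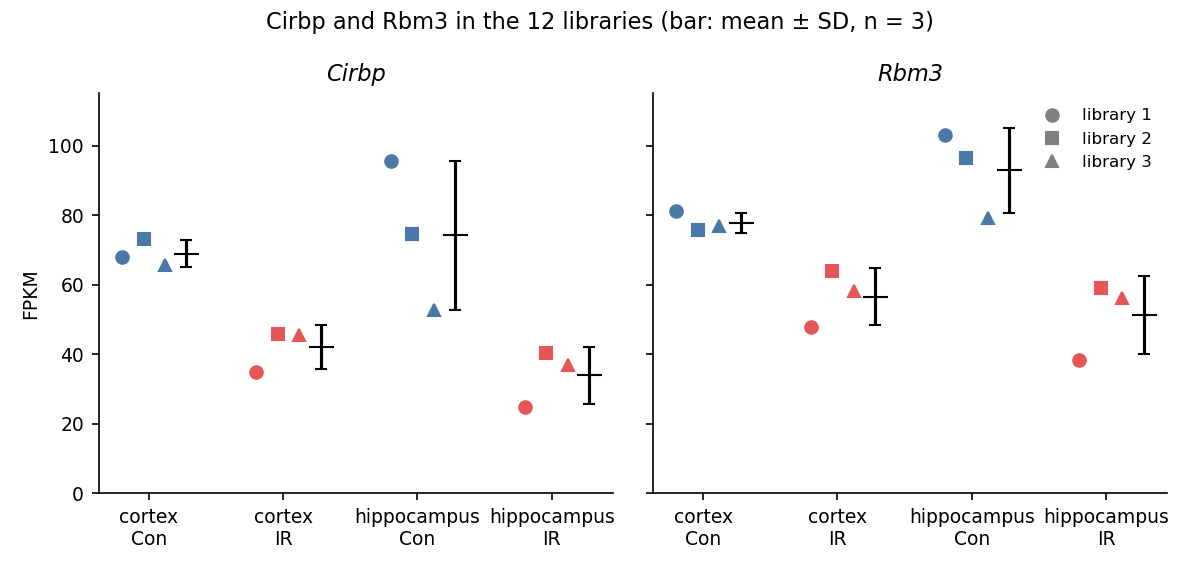
FPKM of *Cirbp* (left) and *Rbm3* (right) in each of the 12 libraries, on an axis that starts at 0, with Con in blue, IR in red, the symbol giving the library number and the black bar the mean ± SD (n = 3). In both regions every IR library lies below every Con library for both genes, and the smallest gap is 11.9 FPKM, for *Rbm3* in the cortex.

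Between the lowest Con and the highest IR library, the gap for *Cirbp* came to 19.9 FPKM in the cortex and 12.4 FPKM in the hippocampus. For *Rbm3* it was 11.9 and 20.2 FPKM. Such a separation was not rare among the genes tested, since all IR libraries lay below all Con libraries for 9.09% of the 14065 genes tested in the cortex and 9.36% of the 14043 in the hippocampus. Both separations were found in 205 of 13649 genes (1.5%). The rule chose the 2 genes by this contrast, so nothing is read from their place in these shares. Ordered by log2 fold change from the lowest, *Cirbp* ranked 10th in the cortex and 7th in the hippocampus, and *Rbm3* was 51st and 13th. By the mean of both regions, *Cirbp* came 1st and *Rbm3* 11th of 13649. Leaving out each library in turn gave log2 fold changes of -0.78 to -0.58 for *Cirbp* and -0.55 to -0.35 for *Rbm3* in the cortex. In the hippocampus the ranges were -1.32 to -0.89 for *Cirbp* and -0.97 to -0.67 for *Rbm3*, with -1.32 and -0.97 when Con 3 was left out. The log2 fold change was more negative in the hippocampus than in the cortex by 0.38 (standard error 0.26) for *Cirbp* and by 0.40 (standard error 0.19) for *Rbm3*. These differences were not tested.

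Both genes were among the more abundant ones. *Cirbp* had a higher mean FPKM than 90.5% of the genes tested in the cortex and 90.0% of those in the hippocampus, and *Rbm3* than 92.5% and 92.96%. *Rbm3* was the higher of the pair in 12 of 12 libraries. The FPKM ratio of *Cirbp* over *Rbm3* was 0.887 ± 0.070 in cortex Con and 0.743 ± 0.036 in cortex IR (SD, n = 3). In the hippocampus it was 0.788 ± 0.13 in Con and 0.660 ± 0.021 in IR. In the cortex the ratio did not overlap, with 0.838 as the lowest Con value and 0.784 as the highest IR value. In the hippocampus it overlapped, with a ratio of 0.664 in Con 3 and 0.683 in IR 2. The ratios were not tested.

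The regions were compared in the Con libraries, which the choice of genes did not order by region. *Cirbp* was at 68.96 FPKM in the cortex and 74.2 FPKM in the hippocampus of Con mice, with a log2 difference of 0.07 (standard error 0.19, adjusted p = 0.814 from limma). *Rbm3* was at 77.9 FPKM in the cortex and 92.9 FPKM in the hippocampus, with a log2 difference of 0.24 (standard error 0.10, adjusted p = 0.0902 from limma). The Con libraries of the regions overlapped for both genes, and neither difference passed the threshold, which 36.3% of 14169 genes did. Without hippocampus Con 3, *Rbm3* was higher in the hippocampus by 0.35 (adjusted p = 0.00493 from limma) and *Cirbp* by 0.29 (adjusted p = 0.0593). Without hippocampus Con 1, the difference for *Cirbp* was -0.13. In IR libraries the order was the other way in the means, with *Cirbp* at 42.0 FPKM in the cortex and 33.9 FPKM in the hippocampus and *Rbm3* at 56.6 and 51.2 FPKM, and both genes overlapped.

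Libraries of one group differed more in these genes than in most genes of like level. The SD within groups on the log2 scale was 0.17 for cortex *Cirbp*, above that of 95.2% of 2248 genes within 2-fold of its level, whose median was 0.071. In the hippocampus it was 0.40, above that of 99.1% of 2364 genes. *Rbm3* had an SD of 0.15 in the cortex and 0.27 in the hippocampus, above that of 93.3% and 96.3% of genes of like level.

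Whether the 2 mRNAs varied together was asked after the mean of each region and treatment was subtracted, so that the difference between IR and Con did not enter. *Cirbp* and *Rbm3* deviated to the same side of their group mean in 10 of 12 libraries. Pearson's r was 0.912 (exact permutation within groups, two-sided p = 0.00849, adjusted p = 0.0255 over 3 relations) and Spearman's rho was 0.853 (exact permutation p = 0.0100, adjusted p = 0.0301). The arrangements within groups allow a p as small as 0.000772. Within regions, r was 0.838 over the 6 cortex libraries (exact permutation p = 0.194) and 0.937 over the 6 hippocampus libraries (exact permutation p = 0.0278, the smallest these can give). Without the 2 libraries farthest from the median, hippocampus Con 3 and IR 1, r was 0.788 (exact permutation p = 0.0764, adjusted p = 0.188), so the call was lost with fewer libraries and arrangements. Without hippocampus Con 3 alone it was kept (r = 0.918, exact permutation, adjusted p = 0.0382). Leaving out cortex IR 1, hippocampus Con 1, hippocampus Con 2 or hippocampus IR 1 alone raised the adjusted p to 0.0764 (exact permutation), with r between 0.880 and 0.943. The labels do not say whether a cortex and a hippocampus library came from the same mouse, and p then measures only the spread between these samples.

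**Figure D2:**
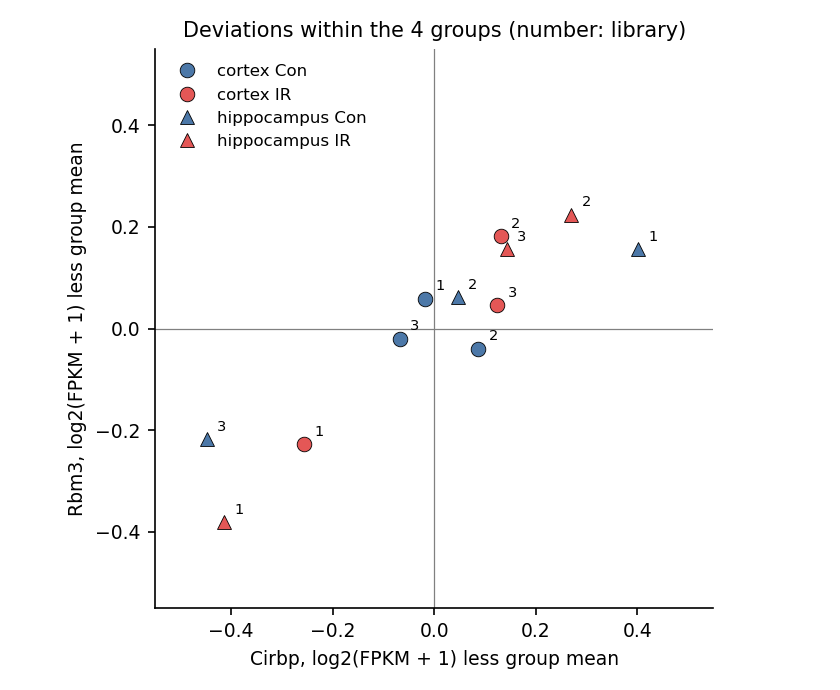
Deviation of each of the 12 libraries from the mean of its group on the log2(FPKM + 1) scale, *Cirbp* on the horizontal and *Rbm3* on the vertical axis, with circles for cortex, triangles for hippocampus, blue for Con and red for IR, and the library number beside each point. The points follow a rising line (r = 0.912), with cortex IR 1, hippocampus IR 1 and hippocampus Con 3 at the lower left.

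Over the 12 libraries with only the region mean subtracted, *Rbm3* was the gene with the highest r to *Cirbp* of 13648 genes, and *Cirbp* was the gene with the highest r to *Rbm3* (r = 0.978). This r contains the difference between Con and IR that chose both. It is a description, and the points share their libraries. Next to *Cirbp* came *Hnrnpdl* (r = 0.971), a splicing regulator of the hnRNP D family, *Tpst2* (0.967), a tyrosine sulfotransferase, *0610040B10Rik* (0.959) and *Hnrnpr* (0.957), an hnRNP of neuronal mRNA transport. Next to *Rbm3* came the taurine transporter *Slc6a6* (r = 0.974), *Tusc3* (0.968), a subunit of the oligosaccharyltransferase, *Trim3* (0.960), a brain ubiquitin ligase, and *Chpf2* (0.944), of chondroitin synthesis. With the group mean subtracted in place of the region mean, *Rbm3* was 57th by its r to *Cirbp*, and *Cirbp* was 8th by its r to *Rbm3*.

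*Hnrnpdl* was at 69.8, 68.7 and 64.9 FPKM in cortex Con and at 51.7, 55.8 and 55.8 FPKM in cortex IR. As a member of the hnRNP list it was called lower in the cortex (log2 fold change -0.31, limma adjusted p = 0.0410), a call that each of the 6 left-out libraries ended (adjusted p up to 0.191), as did 3 of 6 other settings (up to 0.106). Its r to *Cirbp* contains the same contrast of IR and Con, so the call is no separate evidence of likeness. In the hippocampus it was at 98.97, 82.3 and 59.2 FPKM in Con and at 43.9, 56.5 and 51.4 FPKM in IR (log2 fold change -0.63, limma adjusted p = 0.259). *Hnrnpr* was at 16.7, 16.2 and 12.1 FPKM in hippocampus Con and at 9.82, 11.98 and 11.2 FPKM in IR (log2 fold change -0.40, limma adjusted p = 0.286). *0610040B10Rik* was at 3.42, 3.50 and 2.87 FPKM in cortex Con and at 0.954, 1.88 and 1.41 FPKM in cortex IR. In the hippocampus it was at 5.64, 3.88 and 2.57 FPKM in Con and at 1.30, 2.61 and 1.98 FPKM in IR, and there Con 3 and IR 2 overlapped. For all of these, hippocampus Con 1 was the highest and Con 3 the lowest Con library, as for *Cirbp* and *Rbm3*.

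**Figure D3:**
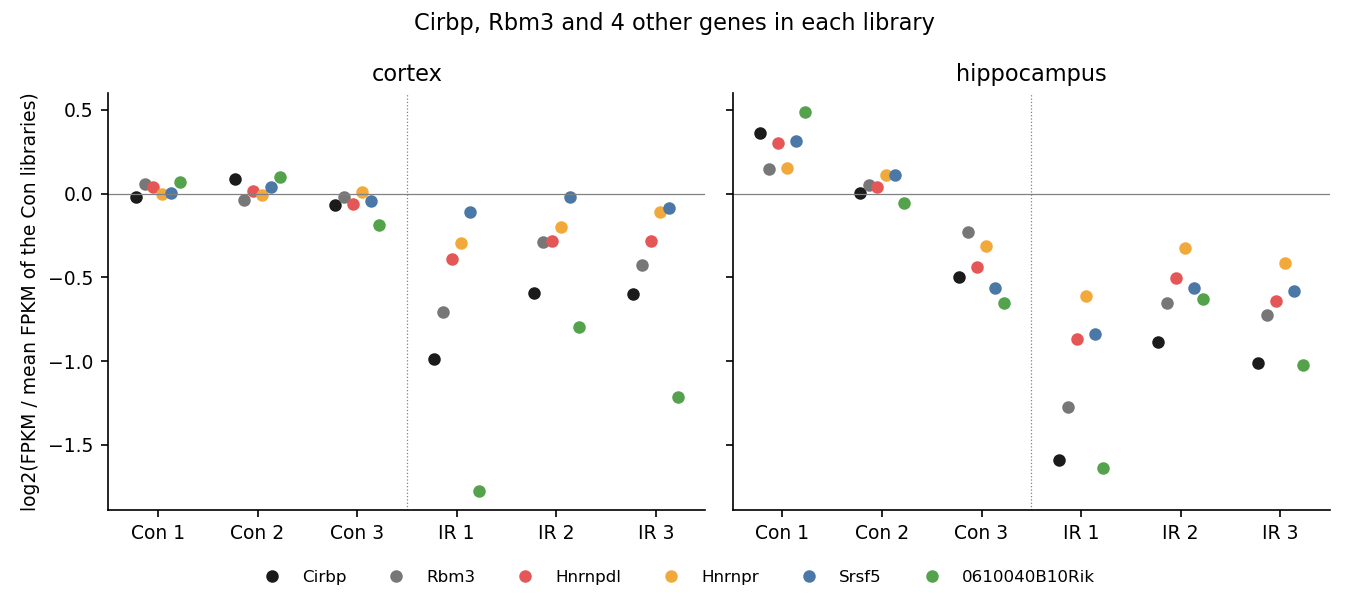
FPKM of *Cirbp*, *Rbm3*, *Hnrnpdl*, *Hnrnpr*, *Srsf5* and *0610040B10Rik* in each library, as the log2 ratio to the mean of the Con libraries of the same region, cortex on the left and hippocampus on the right. In the cortex the Con libraries lie near 0, and in the hippocampus Con 1 lies above 0 and Con 3 below it for the 6 genes.

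Genes around the proteins were then read from 10 lists. The lists were chosen with earlier results of these data known, so their counts and calls are a description and no independent evidence. Background shares were counted with limma over all tested genes. In the cortex 0.562% of genes had an adjusted p under 0.05 and were higher in IR, and 0.164% were lower, with 8.16% and 5.94% at an unadjusted p under 0.05. In the hippocampus 0.0142% were higher and 0.0142% lower, with 7.06% and 6.89% at an unadjusted p. Over all genes, the median log2 fold change was 0.0016 for the cortex and -0.010 for the hippocampus.

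Clock genes moved in the cortex in both directions. Of 22 genes, 3 rose and 3 fell with an adjusted p under 0.05 from limma. *Per2*, a repressor of the clock, rose from 6.21 ± 0.40 to 10.8 ± 0.46 FPKM (log2 fold change 0.71, adjusted p = 0.00400 from limma). *Arntl*, which encodes the activator BMAL1, rose from 12.7 ± 0.40 to 16.6 ± 0.58 FPKM, and *Nfil3*, a repressor of D-box genes, rose from 3.99 ± 0.30 to 6.56 ± 0.42 FPKM. *Dbp*, a clock-driven activator at the D-box, fell from 48.4 ± 2.93 to 24.3 ± 0.86 FPKM (log2 fold change -0.97, adjusted p = 0.000185 from limma). *Ciart*, a circadian repressor, fell from 12.7 ± 1.59 to 6.59 ± 0.43 FPKM, and *Nr1d1*, the heme-sensing repressor REV-ERBα, fell from 70.9 ± 5.11 to 46.8 ± 4.22 FPKM (SD, n = 3 throughout). *Per2*, *Dbp* and *Ciart* kept an adjusted p under 0.05 with each library left out. *Nr1d1* lost it without cortex IR 1 (adjusted p = 0.0520 from limma), *Nfil3* without any 1 of the IR libraries (up to 0.0726) and *Arntl* without any library but Con 2 (up to 0.123). Of 6 other settings, 2 ended the call of *Nr1d1* (adjusted p up to 0.0588) and 3 that of *Arntl* (up to 0.0709).

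In the hippocampus 0 of the 22 clock genes had an adjusted p under 0.05 from limma, and 6 had an unadjusted p under 0.05, of which 2 were higher and 4 lower in IR. *Dbp* was at 27.6 ± 3.36 FPKM in Con and 15.4 ± 1.06 FPKM in IR (log2 fold change -0.80, adjusted p = 0.0823 from limma). *Nfil3* was at 3.59 ± 0.39 and 5.27 ± 0.45 FPKM, and *Ciart* at 6.14 ± 0.24 and 3.98 ± 0.60 FPKM (SD, n = 3). These 3 genes did not overlap between Con and IR, which the rule that named them asked for. The difference between regions was not tested.

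Heat shock genes, which respond to warmth in the opposite sense to *Cirbp* and *Rbm3*, were higher in cortex IR in 23 of 26, with a median log2 fold change of 0.13. *Dnajb5*, a co-chaperone of the HSP40 family, rose from 44.2 ± 3.60 to 70.8 ± 2.83 FPKM (log2 fold change 0.67, adjusted p = 0.00400 from limma). *Cryab*, a small heat shock protein abundant in oligodendrocytes, rose from 59.0 ± 2.82 to 77.3 ± 4.68 FPKM (log2 fold change 0.38, adjusted p = 0.0286 from limma), a call lost without Con 3, IR 1 or IR 2 (up to 0.148) and under 3 of 6 other settings (up to 0.0891). The inducible HSP70 gene *Hspa1b* was at 2.02 ± 0.16 FPKM in Con and 3.47 ± 0.91 FPKM in IR (adjusted p = 0.115 from limma). *Hspb1*, encoding HSP27, was at 7.26 ± 0.65 and 10.7 ± 3.39 FPKM (adjusted p = 0.290 from limma). Cortex IR 1 was the highest in both genes. *Hspa1b* was at 4.52 FPKM in IR 1 against 2.94 and 2.95 FPKM in IR 2 and IR 3, and *Hspb1* at 14.6 against 8.91 and 8.55 FPKM. With unadjusted p, 12 of 26 were higher and 0 lower.

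In the hippocampus 17 of 26 heat shock genes were higher in IR, with a median log2 fold change of 0.10. At an unadjusted p under 0.05 there were 7 higher and 1 lower, and 0 had an adjusted p under 0.05 from limma. *Hspb1* was at 5.6 ± 1.98 FPKM in Con and 10.7 ± 3.48 FPKM in IR, with 14.7 FPKM in IR 1 against 8.94 and 8.45 FPKM in IR 2 and IR 3. *Hspa1a* was at 3.03 ± 0.40 and 4.25 ± 0.47 FPKM and the heat shock factor gene *Hsf1* at 13.3 ± 1.83 and 17.0 ± 0.62 FPKM (SD, n = 3). The rule that named these genes asked for no overlap between Con and IR, so nothing is read from its absence. Without hippocampus Con 3, *Hsf1* rose by 0.43 on the log2 scale (adjusted p = 0.0243 from limma), while *Hspe1* and *Dnaja1*, which encode mitochondrial HSP10 and an HSP40 co-chaperone and were named after their values were seen, fell. These are 1 of 26 higher and 2 of 26 lower, where 2.09% and 4.23% of all genes were called without that library, so nothing is read from the counts.

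The mean of the 26 heat shock genes on the log2(FPKM + 1) scale was 4.97 ± 0.036 in cortex Con and 5.14 ± 0.098 in cortex IR, and 5.13 ± 0.066 and 5.23 ± 0.075 in the hippocampus (SD, n = 3). Within groups, this mean had an r of -0.256 to *Cirbp* (exact permutation p = 0.484, adjusted p = 0.484) and of -0.548 to *Rbm3* (exact permutation p = 0.156, adjusted p = 0.234). Spearman's rho was -0.231 for *Cirbp* (exact permutation p = 0.552) and -0.510 for *Rbm3* (exact permutation p = 0.201). Neither relation passed the threshold. Both depended on single libraries. Without hippocampus Con 3, r was -0.796 for *Cirbp* (exact permutation, adjusted p = 0.0417) and -0.923 for *Rbm3* (exact permutation, adjusted p = 0.00694). Without hippocampus IR 1, r was 0.064 for *Cirbp*, and without both IR 1 libraries it was 0.701 for *Cirbp* and 0.463 for *Rbm3*. Without hippocampus Con 3 and IR 1 together it was -0.678 for *Cirbp*. Within the cortex, r was -0.807 for *Cirbp* (exact permutation p = 0.194) and -0.993 for *Rbm3* (exact permutation p = 0.0278, the smallest that 6 libraries allow here, adjusted p = 0.0833). Within the hippocampus, r was -0.048 for *Cirbp* (exact permutation p = 0.833) and -0.329 for *Rbm3* (exact permutation p = 0.528).

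Kinases and splicing factors of the temperature-sensitive exons were higher in cortex IR in 20 of 23 genes, with a median log2 fold change of 0.12. At an unadjusted p under 0.05, 11 were higher and 0 lower, and 0 had an adjusted p under 0.05 from limma. *Tra2a* was at 31.7 ± 2.22 FPKM in Con and 39.6 ± 2.27 FPKM in IR (log2 fold change 0.32, adjusted p = 0.0771 from limma). *Srsf7* was at 30.4 ± 1.79 and 37.2 ± 3.56 FPKM, and *Hnrnph1*, one of the factors known to act on the *Rbm3* poison exon, at 74.0 ± 5.20 and 89.6 ± 3.19 FPKM (SD, n = 3).

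In the hippocampus 14 of the 23 were lower in IR, with a median log2 fold change of -0.042 and 1 gene in each direction at an unadjusted p under 0.05. The SR protein gene *Srsf5* was at 251, 218 and 136 FPKM in Con and at 113, 136 and 135 FPKM in IR. Con 3 stood beside the IR libraries there, above the highest of them by less than 1 FPKM. *Srsf5* had a limma adjusted p of 0.300 at a log2 fold change of -0.61. *Clk3*, one of the CLK kinases, was at 17.1 ± 0.43 FPKM in Con and 18.9 ± 0.31 FPKM in IR (adjusted p = 0.349 from limma).

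Other proteins with hnRNP-type recognition motifs, the wider family of the pair, were split in the cortex, with 17 of 28 higher and 1 gene, *Hnrnpdl*, past the adjusted threshold. *Hnrnpm* was at 49.6 ± 5.35 FPKM in cortex Con and 59.5 ± 3.30 FPKM in IR, and *Rbm4b* at 6.16 ± 0.41 and 7.17 ± 0.17 FPKM. In the hippocampus 22 of 28 were lower in IR, with a median log2 fold change of -0.18. There 8 were lower and 1 higher at an unadjusted p under 0.05, with 0 past the adjusted threshold (limma). *Msi1*, an RNA-binding protein of neural stem cells, was at 16.2 ± 1.87 FPKM in Con and 12.3 ± 1.08 FPKM in IR (adjusted p = 0.257 from limma).

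These hippocampus values turned on Con 3. The summed FPKM of the 28 hnRNP-type genes was 1756, 1588 and 1338 in Con 1, 2 and 3 and 1264 to 1390 in IR. The sum of the 23 splicing genes was 1078, 1048 and 834 in Con and 848 to 885 in IR. In the cortex the hnRNP-type sum was 1338 to 1403 in Con and 1336 to 1369 in IR. The splicing sum there was 820 to 851 in Con and 884 to 900 in IR. Hippocampus Con 1 and Con 2 thus lay above every other library in both sums, and Con 3 lay among the cortex and IR libraries. Leaving out Con 3 kept only Con 1 and Con 2 in hippocampus Con. Without Con 3, the number of hippocampus genes with an adjusted p under 0.05 from limma went from 4 to 880 of 13909, with 2.09% higher and 4.23% lower in IR. Leaving out another library gave 0 to 3. Among the hnRNP-type genes, 9 of 28 then fell and 1 rose, with *Hnrnpdl* at -0.83 (adjusted p = 0.0223), *Hnrnpr* at -0.54 (adjusted p = 0.0243) and *Msi1* at -0.46 (adjusted p = 0.0301). Of the splicing genes 6 of 23 fell, *Srsf5* by 0.87 on the log2 scale (adjusted p = 0.0183). Of the clock genes 1 of 22 rose and 3 fell, *Dbp* and *Ciart* among them (adjusted p = 0.0140 and 0.0467). Con 3 was singled out after its values were seen and was the Con library nearest to IR in *Cirbp*, so the calls made without it are no separate evidence.

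**Figure D4:**
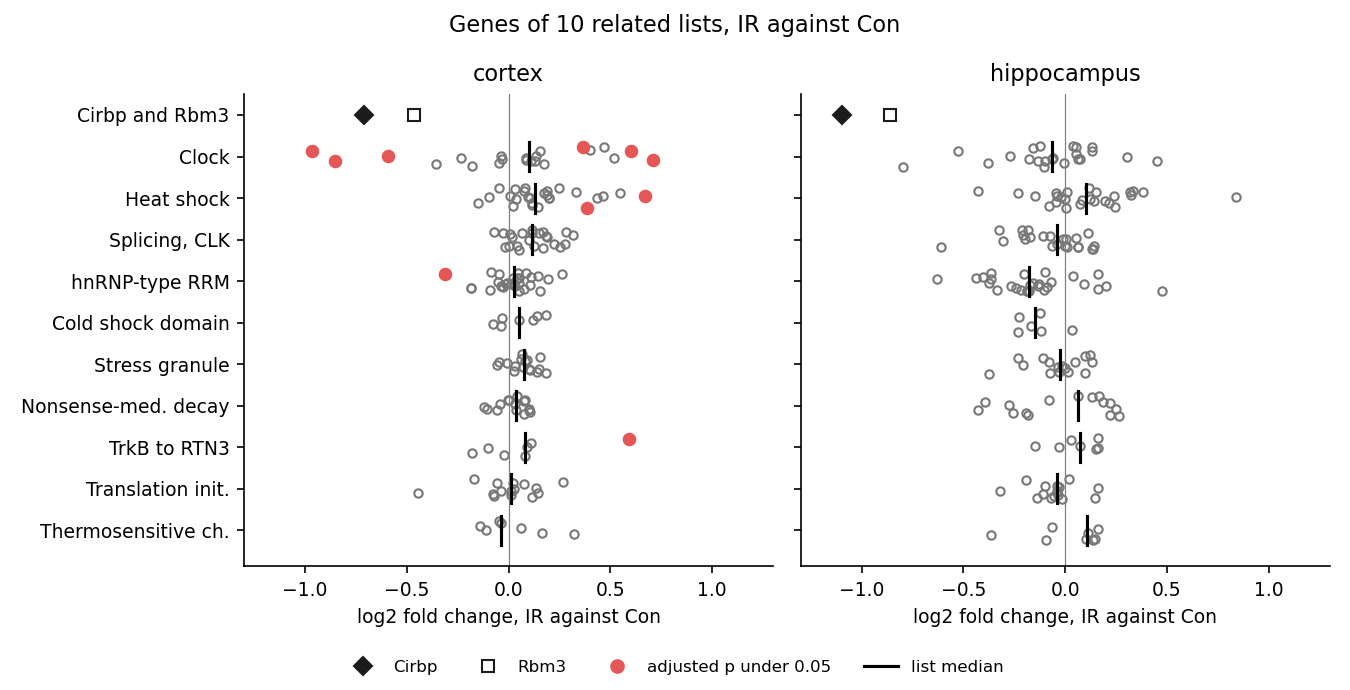
Log2 fold change of IR against Con from limma for the genes of 10 lists, cortex on the left and hippocampus on the right, with *Cirbp* and *Rbm3* in the top row as a description. Open points did not pass, red points had an adjusted p under 0.05 and black ticks are list medians. The red points, 6 clock genes, 2 heat shock genes, *Hnrnpdl* and *Bdnf*, are in the cortex.

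The route from TrkB to RTN3 held 1 called gene of 7 in the cortex. *Bdnf*, the ligand of TrkB, rose from 5.12 ± 0.22 to 8.24 ± 0.57 FPKM (log2 fold change 0.59, limma adjusted p = 0.0106, and 0.0611 without cortex IR 1). In the hippocampus 0 of the 7 had an adjusted p under 0.05 (limma) and 2 had an unadjusted p under 0.05. *Mapk3*, which encodes the kinase ERK1, was at 76.4 ± 1.51 FPKM in Con and 85.4 ± 2.98 FPKM in IR.

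Of the remaining lists, no gene had an adjusted p under 0.05 from limma in either region with all libraries. Without hippocampus Con 3, when 4.23% of all genes were called lower, 1 of 6 cold shock domain genes, 3 of 16 stress granule genes, 2 of 15 genes of nonsense-mediated decay and 1 of 15 translation initiation genes were called lower there, among them *Ddx3x* and *Magohb* (limma adjusted p = 0.0207 for each). These counts are too small to set the lists apart from all genes. At an unadjusted p under 0.05, cold shock domain genes were higher in 3 of 7 in the cortex and lower in 3 of 6 in the hippocampus. *Ybx3* was at 18.8 ± 0.31 FPKM in cortex Con and 21.4 ± 0.48 FPKM in IR. Among 16 stress granule genes, 4 were higher in the cortex, and 1 was higher and 2 lower in the hippocampus, where the helicase gene *Ddx3x* was at 69.4 ± 8.63 FPKM in Con and 53.1 ± 3.19 FPKM in IR. Among 15 genes of nonsense-mediated decay, 0 passed the unadjusted threshold in the cortex, while 3 were higher and 1 lower in the hippocampus. *Magohb*, of the exon junction complex, was at 8.20 ± 1.21 and 5.79 ± 0.17 FPKM there. Of 15 translation initiation genes, 3 were higher and 2 lower in the cortex, where the 4E-binding protein gene *Eif4ebp1* was at 4.68 ± 0.51 and 3.20 ± 0.68 FPKM, and 1 was higher and 1 lower in the hippocampus. Of the thermosensitive channels, 1 of 7 was higher in the cortex, *Kcnk4* at 7.96 ± 1.16 and 10.2 ± 1.10 FPKM. In the hippocampus 1 of 8 was lower, *Kcnk2* at 20.2 ± 1.72 and 15.5 ± 1.92 FPKM (SD, n = 3).

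The genes beside the pair did not share its values. *Midn*, which ends 7617 bases below *Cirbp*, rose from 18.1 ± 3.06 to 29.4 ± 1.39 FPKM in cortex (log2 fold change 0.68, limma adjusted p = 0.0286), a call lost without Con 3 or any 1 of the IR libraries (up to 0.117) and under 2 of 6 other settings (up to 0.0909). In the hippocampus it was at 15.6 FPKM in both groups. *1600002K03Rik*, 158 bases above *Cirbp*, overlapped between Con and IR in both regions. *Wdr13*, 6083 bases below *Rbm3*, was at 59.8 ± 1.47 and 60.2 ± 1.81 FPKM in cortex Con and IR and at 66.7 ± 4.22 and 62.0 ± 3.09 FPKM in the hippocampus. *Tbc1d25*, 8592 bases above *Rbm3*, had log2 fold changes of -0.080 and -0.0015 in cortex and hippocampus. The antisense gene *Rbm3os* overlaps *Rbm3* by 452 bases and was listed at 0.080 to 0.848 FPKM, too low for the test. Whether counting kept the strands apart is not given in the sources used here, so reads in the overlap cannot be told apart.

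Markers of other cell types were read beside the pair, and 1 of them, hippocampus *Csf1r*, had an adjusted p under 0.05 among the microglia, endothelial and oligodendrocyte lists. *Csf1r*, the microglial growth factor receptor gene, was named after its values were seen and fell from 22.3 ± 1.83 to 11.99 ± 0.27 FPKM (log2 fold change -0.84, limma adjusted p = 0.0126), a call lost without Con 1 or any 1 of the IR libraries (up to 0.230). All 7 microglia markers had a lower mean in IR in both regions. Their summed FPKM overlapped in the cortex, at 131.7 to 141.7 in Con and 97.8 to 132.5 in IR, and did not overlap in the hippocampus, at 129 to 152 and 97.8 to 112. The 5 endothelial markers summed to 69.8 to 84.3 FPKM in Con and 87.7 to 99.9 FPKM in IR in the cortex, and to 61.5 to 68.4 and 75.7 to 78.4 FPKM in the hippocampus. The 6 oligodendrocyte markers summed to 1050 to 1302 FPKM in cortex Con and 1306 to 1583 FPKM in cortex IR, and overlapped in the hippocampus. All 6 were higher in cortex IR, while 4 were lower and 2 higher in hippocampus IR, with median log2 fold changes of 0.16 and -0.20. Choroid plexus markers varied between libraries of one group, from 22.9 to 1063 FPKM in hippocampus Con and from 24.2 to 1654 FPKM in hippocampus IR, with the highest sum in IR 1. In the cortex they summed to 4.62 to 31.1 FPKM in Con and 16.6 to 440 FPKM in IR, with the highest sum in IR 2. Sums of neuron and astrocyte markers overlapped between Con and IR in both regions. Of the 6 astrocyte markers, 5 were lower and 1 higher in hippocampus IR, and 3 were higher and 3 lower in cortex IR. In the hippocampus 3 of them were lower at an unadjusted p under 0.05 from limma, where 6.89% of all genes were. The part of these cell types in the values of *Cirbp* and *Rbm3* was not tested.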

How the data were processed

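The deposited values are FPKM, which the authors made by trimming reads with FASTX_Trimmer and BBMap, aligning them with TopHat to mm10 (per the submitters' processing notes), quantifying with Cufflinks and applying a geometric normalization in edgeR. The annotation used is not given in the sources used here. Libraries were grouped by label.

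Genes that reached 0.5 FPKM in 3 or more of 6 libraries were fitted on log2(FPKM + 1) with limma 3.58.1 in R 4.3.3 (trend and robust prior), per region, with Benjamini-Hochberg adjustment over all tested genes. The fold changes are on this scale, which understates changes of low genes. Exact permutation tests over libraries used Python 3.11.15 and the steps were tested on simulated data. Without read counts, no counting error is given.

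*Cirbp*, *Rbm3* and the lists were chosen with earlier results of these data known. Named list genes were those with an adjusted p under 0.05 and up to 3 per list and region with an unadjusted p under 0.05, no overlap and the largest fold changes. Added to these were the 5 genes with the highest r to each member and the nearest genes. Some genes that the rule names are not reported here. Alternatives were the pseudocount (0.1), the filter, quantile normalization, the ratio of means, the prior, the replicate block and each library left out.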

Additional observations from a re-analysis of the deposited data

How the results depend on the processing

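The fold changes of *Cirbp* and *Rbm3* kept their sign in both regions under a pseudocount of 0.1, quantile normalization, the ratio of group means and each library left out. As every IR library lay below every Con library, only quantile normalization could have changed the sign. The region difference in Con ranged from -0.13 to 0.29 for *Cirbp*, negative without hippocampus Con 1, and from 0.17 to 0.35 for *Rbm3*, with each library left out. The r between the pair was 0.838 in the cortex alone, 0.937 in the hippocampus alone, 0.788 without the 2 farthest libraries and 0.874 without both IR 1 libraries, an alternative chosen after seeing the data. None of these had an adjusted p under 0.05, with fewer libraries in each, and leaving out 1 library gave 0.880 to 0.943. The r to the heat shock mean ranged from -0.796 to 0.064 for *Cirbp* and from -0.923 to -0.292 for *Rbm3* with 1 library left out. It was positive without both IR 1 libraries (0.701 and 0.463) and, for *Rbm3*, without its 2 farthest libraries (0.463), which are the same libraries. For *Cirbp* without its own 2 farthest libraries, hippocampus Con 3 and IR 1, it was -0.678. The cause was not tested.

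The 102 genes called in the cortex became 24 without a filter, 22 without trend or robust prior and 16 to 78 with 1 library left out. The 4 called in the hippocampus became 2 with at least 1 FPKM in every library, 1 with a replicate block and 0 to 880 with 1 library left out. With the replicate block 71 cortex genes were called. Between the regions in Con, 4967 genes were called with the block and 5147 without it. Within groups, Con and IR libraries of one number had r from -0.377 to 0.068 across genes, so the numbers were not taken to pair Con with IR. Between cortex and hippocampus, r for one number was -0.054 to 0.181, where number 3 in Con (0.181) and IR (0.105) and number 1 in Con (0.021) matched their own number best. With the replicate block, the calls of *Arntl* (adjusted p = 0.0709), *Cryab* (0.0556), *Hnrnpdl* (0.0990) and hippocampus *Csf1r* (0.144) were lost. Depth in reads is unknown, which limits what can be said of low genes such as *Rbm3os*.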
